A study of Homo sapiens with 18 samples.

Results

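The BCL2 family genes BCL2A1, MCL1, BCL2L1, BCL2L11, PMAIP1, BBC3, BIK, BID, BAX and BAK1 were followed across all 18 RNA-seq libraries of the study. They were taken by name, as the rows carrying these 10 symbols among the 55765 symbols of the count data, with no threshold on a measured value. All 10 had a row in both series, and 9 of 10 passed the filter on low counts in each series, the exception being BCL2A1.

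Proteins of this family control the mitochondrial route to apoptosis. The guardians, BFL-1 (BCL2A1), MCL-1 (MCL1) and BCL-XL (BCL2L1), hold the pore-forming effectors BAX (BAX) and BAK (BAK1) in check. BH3-only proteins, among them BIM (BCL2L11), NOXA (PMAIP1), PUMA (BBC3), BIK (BIK) and BID (BID), bind the guardians, and some also act on the effectors directly. Serous ovarian carcinoma cells commonly rely on MCL-1 and BCL-XL to survive.

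The cells were OVCAR3, an established line of high-grade serous ovarian carcinoma, grown in RPMI medium with 2% serum. In the first series they received non-specific IgA or IgG at 0.5 µg/ml or no antibody (untreated). In the second they received IgA against TSPAN7, a tetraspanin, or IgA against BDNF, a neurotrophin, each at 0.5 µg/ml, or no antibody. The second series held no non-specific IgA or IgG. Against its untreated cells, antigen binding and IgA as such therefore cannot be told apart. Each group had 3 libraries. Treatment lasted 24 h per the sample labels. A shorter time is given elsewhere for these libraries. The comparisons ask how tumour cells respond to IgA, which epithelial cells take up through the polymeric immunoglobulin receptor. The series were fitted separately, and no level was compared between them. All groups come from 1 cell line. The labels do not say whether replicates were separate cultures, while the study's legends call those with non-specific antibodies experiments, and p-values measure the spread between these libraries.

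Libraries held 27920733 to 42371474 counts with non-specific antibodies and their controls, and 39254350 to 47381836 with the antigen-specific ones and theirs. IgA replicate 3 stood apart, with 19.1% of its counts from mitochondrial genes against 5.75% to 8.32% in the other libraries of the first series. All 12 epithelial and serous markers had at least 10 counts in every group, with summed levels between 4365 and 6534 CPM (counts scaled to a common library total). The 12 leukocyte and B cell markers summed to at most 2.82 CPM and the 7 of 8 fibroblast and endothelial markers found to at most 30.8 CPM. The latter sum was 24.1 to 30.8 CPM with IgA, above the IgG libraries (20.8 to 23.0) and overlapping the untreated ones (20.3 to 26.8). It came mostly from COL1A1, with 580 to 1065 counts in these libraries, while no other gene of the list exceeded 57. COL1A1 was called higher with IgA against IgG (0.64, adjusted p = 0.0216 with edgeR), a call kept in 13 of 18 alternatives. With IgA against IgG, 2 of the 12 epithelial and serous markers were higher and 4 lower at an adjusted p under 0.05, beside 24.2% of all genes. The higher ones were KRT7 (0.43) and PAX8 (0.34). The lower ones were CLDN3 (-1.49), WT1 (-1.17), CLDN4 (-0.52) and KRT8 (-0.37). In the second series 5 of these 12 were higher with BDNF IgA (beside 7.67% of all genes). With TSPAN7 IgA 1 was higher and 3 lower (beside 8.54%). Between the antibodies 1 was higher and 6 lower, with a median of -0.26 (beside 7.92% of all genes). The summed level of these markers was 4862 to 5232 CPM untreated, 5007 to 6014 with BDNF IgA and 4365 to 4535 with TSPAN7 IgA, below all untreated libraries. The part of these shifts in the results was not tested. In bulk RNA, fewer cells of a kind and less RNA per cell cannot be told apart.

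Levels within a library can be ordered only per length, so normalised counts (counts brought to the average TMM-adjusted total of a series) were divided by the exon length of each gene in kb. In untreated cells of the first series MCL1 was the highest, at 1299 ± 48.0 normalised counts per kb (SD, n = 3), followed by BCL2L1 at 929 ± 45.4 and BID at 517 ± 30.4. BAX (288 ± 22.5) and PMAIP1 (278 ± 3.58) came next and overlapped, so their order does not hold beyond the spread. BAK1 (231 ± 11.8), BCL2L11 (149 ± 2.24), BBC3 (56.0 ± 10.6) and BIK (12.4 ± 7.09) followed without overlap between neighbours. Untreated cells of the second series also had MCL1 first (1783 ± 15.2) and BCL2L1 next (1064 ± 63.5). There BAX (527 ± 30.8) and BID (520 ± 31.95) overlapped, followed by PMAIP1 (404 ± 12.8), BAK1 (297 ± 10.9), BCL2L11 (168 ± 7.18), BBC3 (35.7 ± 3.91) and BIK (20.2 ± 5.96). BCL2A1 was last everywhere: its raw counts were 0, 0 and 2 in untreated cells, 0, 0 and 1 with IgG, and 5, 3 and 0 with IgA. In the second series they were 3, 0 and 0 without antibody, 0, 0 and 1 with BDNF IgA, and 1, 1 and 2 with TSPAN7 IgA. A count of 0 allows up to 3 counts in a library, so nearly all values of BCL2A1 lie at or under that limit and no fold change is given.

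**Figure D1:**
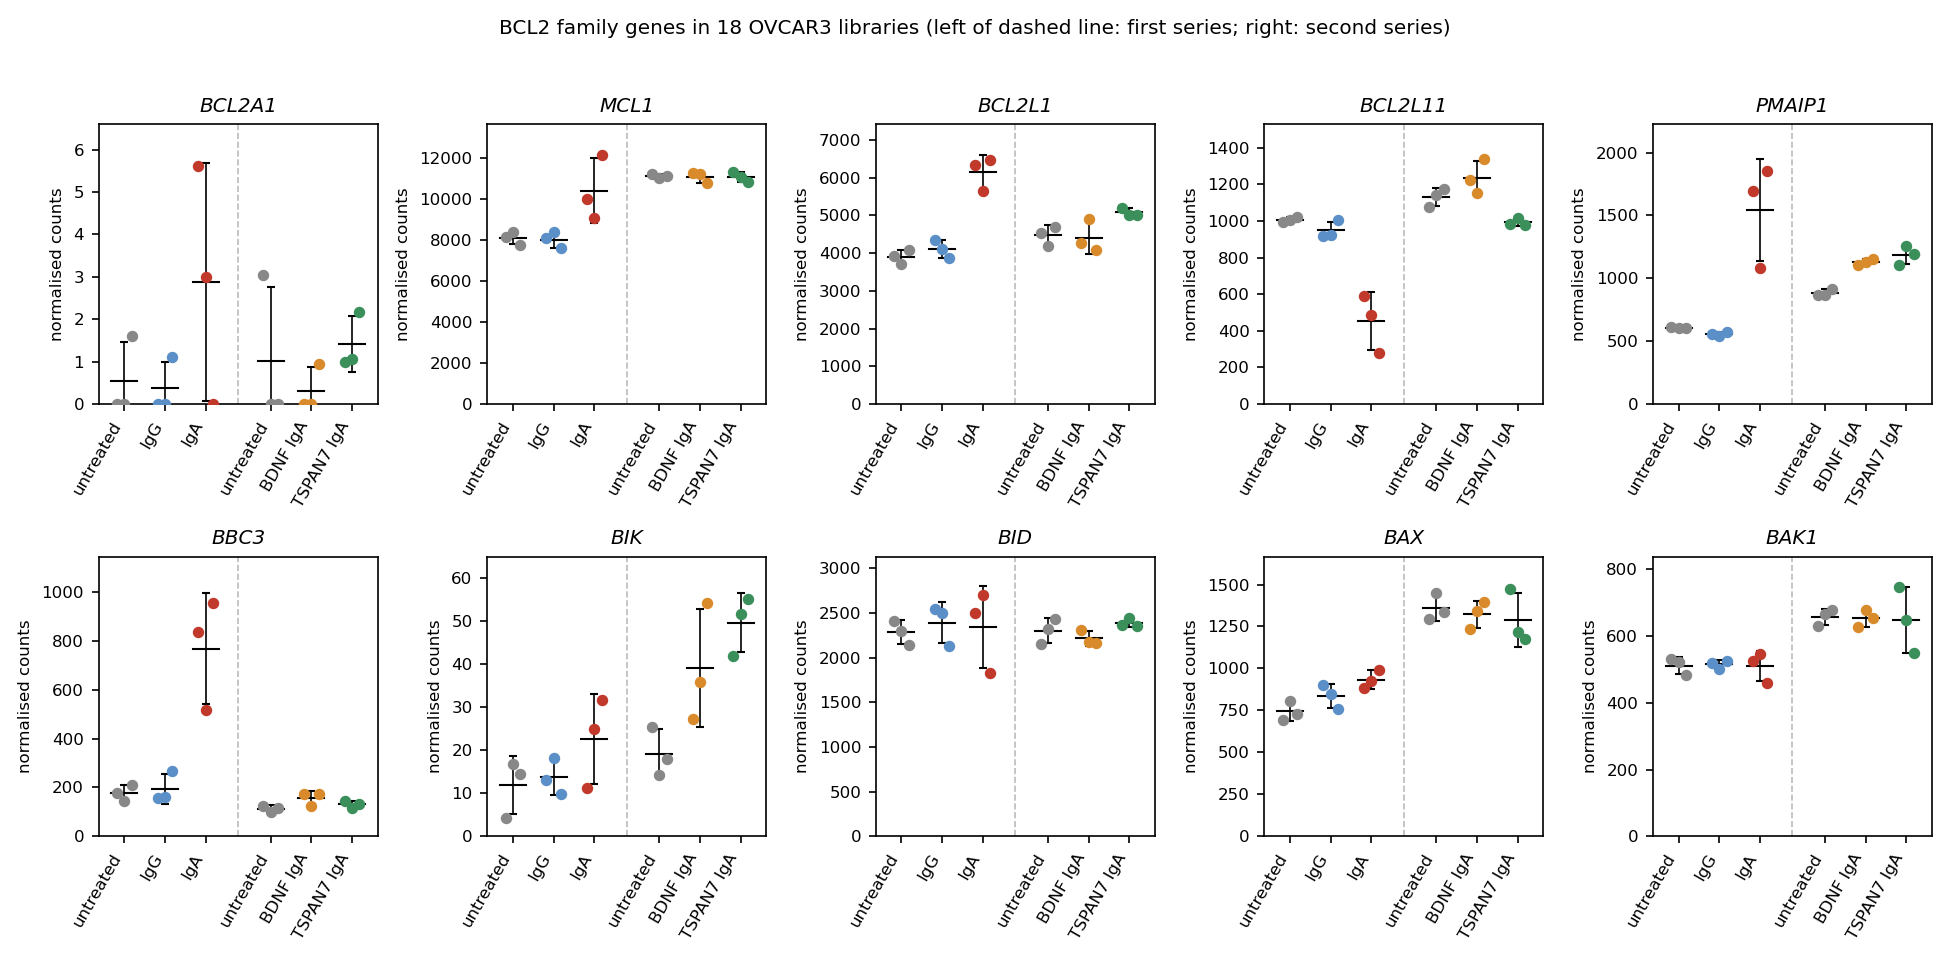
Normalised counts (y axis, linear, from 0) of the 10 BCL2 family genes in each of the 18 libraries, 3 points per group, with the group mean (bar) and SD (whisker). The dashed line separates the series; with IgA, the points of PMAIP1, BBC3, BCL2L1 and MCL1 lie above and those of BCL2L11 below all IgG and untreated points, while BID and BAK1 overlap.

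Incubation with IgA raised the guardians MCL1 and BCL2L1 together with the BH3-only genes BBC3 and PMAIP1, and lowered BCL2L11. Against IgG, 5 of the 9 tested members were called with edgeR's quasi-likelihood test at an adjusted p under 0.05, 4 higher and 1 lower, beside 24.2% of all 18012 genes tested (12.6% higher and 11.6% lower). BIK, BID, BAX and BAK1 did not pass the test. Against untreated cells the calls were the same 5 genes in the same directions, beside 25.0% of all genes. Both comparisons use the same IgA libraries. Scaling to library size alone moved the split over all genes from 2265 higher and 2095 lower to 873 and 3631 against IgG, and from 2316 and 2187 to 1001 and 3296 against untreated cells. The median log2 fold change of the 9 members was 0.38 against IgG and 0.36 against untreated cells, beside -0.01 over all genes in either comparison. The groups did not overlap for 5 members against IgG and for 6 against untreated cells, beside 40.3% and 39.9% of all genes.

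BBC3 encodes PUMA, a BH3-only protein that binds every guardian and is best known as a product of p53. It lies on chromosome 19 at chr19:47724079-47736023 (GRCh37, minus strand). It gave 179, 145 and 212 normalised counts in untreated cells, 155, 162 and 266 with IgG, and 838, 516 and 954 with IgA. All IgA libraries stood above all others, and untreated and IgG libraries overlapped. The log2 fold change was 1.99 (SE 0.263, 3.96-fold, adjusted p = 2.52e-04) against IgG and 2.10 (SE 0.263, 4.30-fold, adjusted p = 1.51e-04) against untreated cells.

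PMAIP1 encodes NOXA, a BH3-only protein that binds mainly MCL-1 and promotes its degradation. It lies at chr18:57567228-57571537 (GRCh37, plus strand). It gave 616, 604 and 601 normalised counts in untreated cells, 555, 541 and 573 with IgG, and 1699, 1084 and 1853 with IgA. IgA libraries were the highest, and IgG libraries all lay slightly below the untreated ones. The log2 fold change was 1.47 (SE 0.167, 2.77-fold, adjusted p = 8.42e-05) against IgG and 1.35 (SE 0.166, 2.54-fold, adjusted p = 1.39e-04) against untreated cells, and without IgA replicate 3 the former was 1.32.

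BCL2L11 encodes BIM, a BH3-only protein that binds all guardians and can act on BAX and BAK directly. It lies at chr2:111876955-111926021 (GRCh37, plus strand). It gave 993, 1003 and 1022 normalised counts in untreated cells, 919, 921 and 1002 with IgG, and 588, 489 and 279.6 with IgA. The IgA libraries were the lowest, with no overlap, and IgA replicate 3 was the lowest of all. BCL2L11 fell by 1.06 on the log2 scale (SE 0.198, 2.08-fold lower, adjusted p = 0.0024) against IgG and by 1.15 (SE 0.198, 2.21-fold lower, adjusted p = 0.00135) against untreated cells. Without IgA replicate 3 it fell by 0.82 against IgG. The antisense gene MIR4435-2HG shares 10.8% of the exon bases of BCL2L11, and no source states a strand setting for the counting.

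The starts of these 3 genes are shown because they had the largest called changes with non-specific IgA, of which 1 runs opposite to the others. The sequences are the 250 bases before the RefSeq start on GRCh38.p14, written 5′ to 3′ on the strand of the gene. Capitals mark matches to the motifs searched on both strands: the kappaB site of NF-kB and the p53 decamer (by name), AP-1 (TGANTCA), FOXO (TGTTTAC), the C/EBP-ATF composite (TGATGNAA) and the GC box (GGGCGG).
BBC3, chr19:47232668-47232917, minus strand: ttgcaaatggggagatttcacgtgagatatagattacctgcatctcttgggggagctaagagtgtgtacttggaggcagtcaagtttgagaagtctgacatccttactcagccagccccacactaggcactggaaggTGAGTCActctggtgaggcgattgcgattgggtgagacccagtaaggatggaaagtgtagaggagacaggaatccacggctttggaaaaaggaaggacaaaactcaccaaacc
PMAIP1, chr18:59899746-59899995, plus strand: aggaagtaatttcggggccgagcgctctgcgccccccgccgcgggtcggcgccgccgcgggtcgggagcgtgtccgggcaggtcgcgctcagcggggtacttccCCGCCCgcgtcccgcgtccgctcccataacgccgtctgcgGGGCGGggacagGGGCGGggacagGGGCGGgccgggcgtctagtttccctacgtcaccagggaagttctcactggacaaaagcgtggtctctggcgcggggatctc
BCL2L11, chr2:111120664-111120913, plus strand: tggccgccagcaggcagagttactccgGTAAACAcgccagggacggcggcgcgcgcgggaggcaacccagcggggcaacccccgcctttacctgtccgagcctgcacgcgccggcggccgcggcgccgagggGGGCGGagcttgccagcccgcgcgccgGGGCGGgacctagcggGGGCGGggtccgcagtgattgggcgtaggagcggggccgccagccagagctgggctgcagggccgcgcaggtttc
The BBC3 stretch held 1 AP-1 match, at positions -113 to -107 from the start, a motif found in 6.57% of 35116 promoters of this length. The PMAIP1 stretch held 4 GC boxes and the BCL2L11 stretch held 3 GC boxes and 1 FOXO match. GC boxes are present in 42.6% of promoters and the FOXO motif in 2.98%. GC content was 49.2% for BBC3, 72.8% for PMAIP1 and 76.8% for BCL2L11, beside a median of 58.0% over all promoters. None of these 3 stretches matched the kappaB site (8.04% of promoters) or the p53 decamer (5.57%), which says only that these letters are not in these windows. Of the 10 members, 8 matched the promoter table.

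BIK and BID, the remaining BH3-only members, were not called with IgA. BIK (chr22:43506756-43525718) is an endoplasmic reticulum protein of this class, and it gave 4.15, 16.8 and 14.5 normalised counts in untreated cells, 13.1, 18.2 and 9.88 with IgG, and 11.2, 25.0 and 31.6 with IgA. These low values overlapped. The log2 difference from IgG was 0.70 with a 95% interval from -0.66 to 2.05, and differences within these bounds remain possible. BID (chr22:18216904-18257536), which caspase-8 cleaves to link death receptors to mitochondria, gave 2414, 2295 and 2145 without antibody, 2547, 2499 and 2129 with IgG, and 2495, 2697 and 1826 with IgA. Its groups overlapped, and the log2 difference from IgG was -0.03 with an interval from -0.33 to 0.26.

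Of the guardians, BCL2L1 had the larger rise. BCL2L1 (chr20:30252255-30311792, minus strand) gave 3909.9, 3703 and 4084 normalised counts in untreated cells, 4336, 4115 and 3876 with IgG, and 6335, 5633 and 6463 with IgA. All IgA libraries were above all others. The log2 fold change was 0.58 (SE 0.0949, 1.49-fold, adjusted p = 0.00109) against IgG and 0.66 (SE 0.0950, 1.58-fold, adjusted p = 4.35e-04) against untreated cells. With scaling to library size alone, which lowers the median of all genes by 0.23 and 0.21, these became 0.34 and 0.44, still called with edgeR (adjusted p = 0.0426 and 0.0127). The antisense gene ABALON, not among the counted symbols, shares 41.3% of the exon bases of BCL2L1, and reads of the pair cannot be told apart without strand.

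MCL1 (chr1:150533371-150552214, minus strand), whose protein turns over rapidly, gave 8126, 8360.2 and 7768 normalised counts in untreated cells, 8075, 8365 and 7583 with IgG, and 9981, 9059 and 12159.8 with IgA. The IgA libraries were the highest, with IgA replicate 3 highest of all. The log2 fold change was 0.38 (SE 0.110, 1.30-fold, adjusted p = 0.0256) against IgG and 0.36 (SE 0.110, 1.29-fold, adjusted p = 0.0292) against untreated cells. The call did not hold without IgA replicate 3, at 0.25 (adjusted p = 0.0589 with edgeR) and 0.23 (0.0711), nor with scaling to library size alone, at 0.13 (0.435) and 0.14 (0.391).

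The effectors were not called. BAX (chr19:49458072-49465055) gave 694, 808 and 731 normalised counts in untreated cells, 899.7, 846 and 759.8 with IgG, and 882, 924 and 994 with IgA. IgA libraries were above the untreated ones but overlapped those with IgG, with log2 differences of 0.33 (adjusted p = 0.0582) and 0.16 (adjusted p = 0.347, 95% interval -0.09 to 0.41) in edgeR. BAK1 (chr6:33540324-33548070) gave 531, 522 and 482 without antibody, 519.9, 503 and 524 with IgG, and 526, 547 and 459.7 with IgA. Its 3 groups overlapped, with a log2 difference from IgG of -0.01 and an interval from -0.29 to 0.26. The count data also list BAK1P1 and BAK1P2, processed copies that can share or take reads of BAK1.

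**Figure D2:**
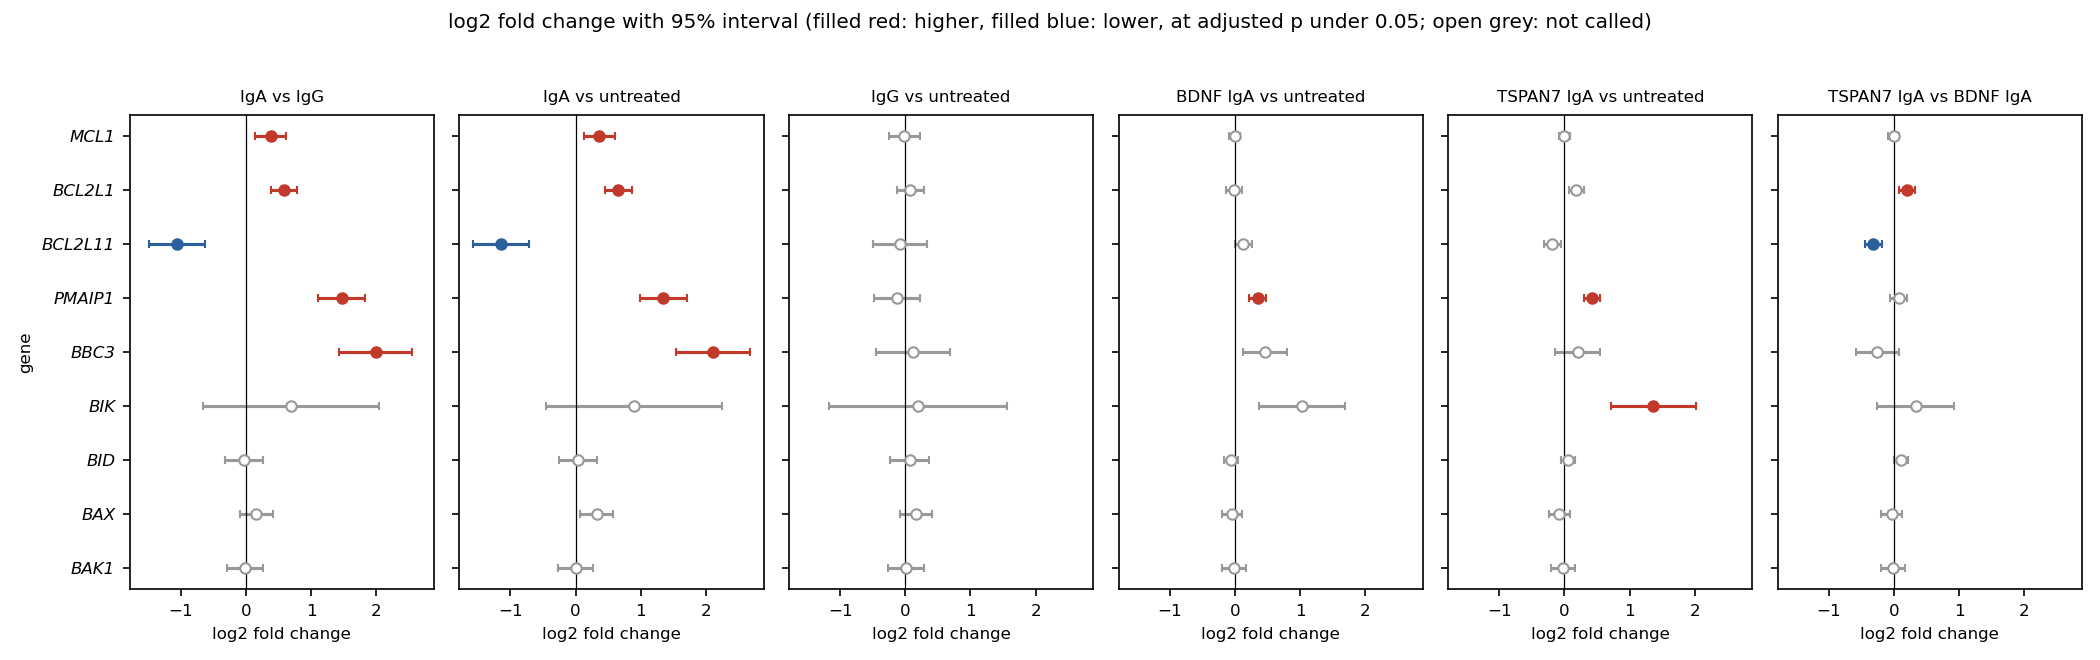
Log2 fold changes (x axis) of the 9 tested members with 95% intervals in the 6 comparisons, filled where the adjusted p was under 0.05 (red higher, blue lower) and open grey where it was not. With IgA, BBC3 and PMAIP1 lie to the right (1.99 and 1.47 against IgG) and BCL2L11 to the left (-1.06), no member is filled for IgG against untreated, and PMAIP1 is filled for BDNF IgA (0.35) and TSPAN7 IgA (0.42).

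Incubation with IgG gave no call. None of the 9 members was called against untreated cells, beside 0.0% of 18012 genes, and none had an unadjusted p under 0.05 or was called with DESeq2. Over all genes 89 had an unadjusted p under 0.05. The log2 differences ran from -0.13 (PMAIP1, 95% interval -0.48 to 0.23) to 0.20 (BIK, -1.16 to 1.57), with a median of 0.07 beside 0.00 over all genes. Between these lay BCL2L11 (-0.09), MCL1 (-0.01), BAK1 (0.01), BID (0.07), BCL2L1 (0.08), BBC3 (0.12) and BAX (0.17). PMAIP1 was the member whose IgG and untreated libraries did not overlap (1 of 9, beside 6.75% of all genes).

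The make-up of the sum of the 5 BH3-only members was different with IgA. Summed per kb, the 5 BH3-only members came to 44.7% to 46.3% of the 3 guardians in untreated libraries, 43.9% to 46.0% with IgG and 46.8% to 54.6% with IgA. The share of PMAIP1 in that BH3-only sum was 27.2% to 27.7% untreated, 24.3% to 26.6% with IgG and 36.3% to 51.8% with IgA. BBC3 made up 4.51% to 6.69%, 4.73% to 8.46% and 11.8% to 18.3% in the same order. The share of BCL2L11 was 14.2% to 15.3%, 13.3% to 15.1% and 2.54% to 5.30%. BID, the largest part in untreated libraries at 48.8% to 52.7%, made up 25.3% to 44.6% with IgA. These shares describe transcripts only and carry no test. Genes outside the members, such as the BH3-only gene BMF and the guardian gene BCL2L2, are not in these sums.

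**Figure D3:**
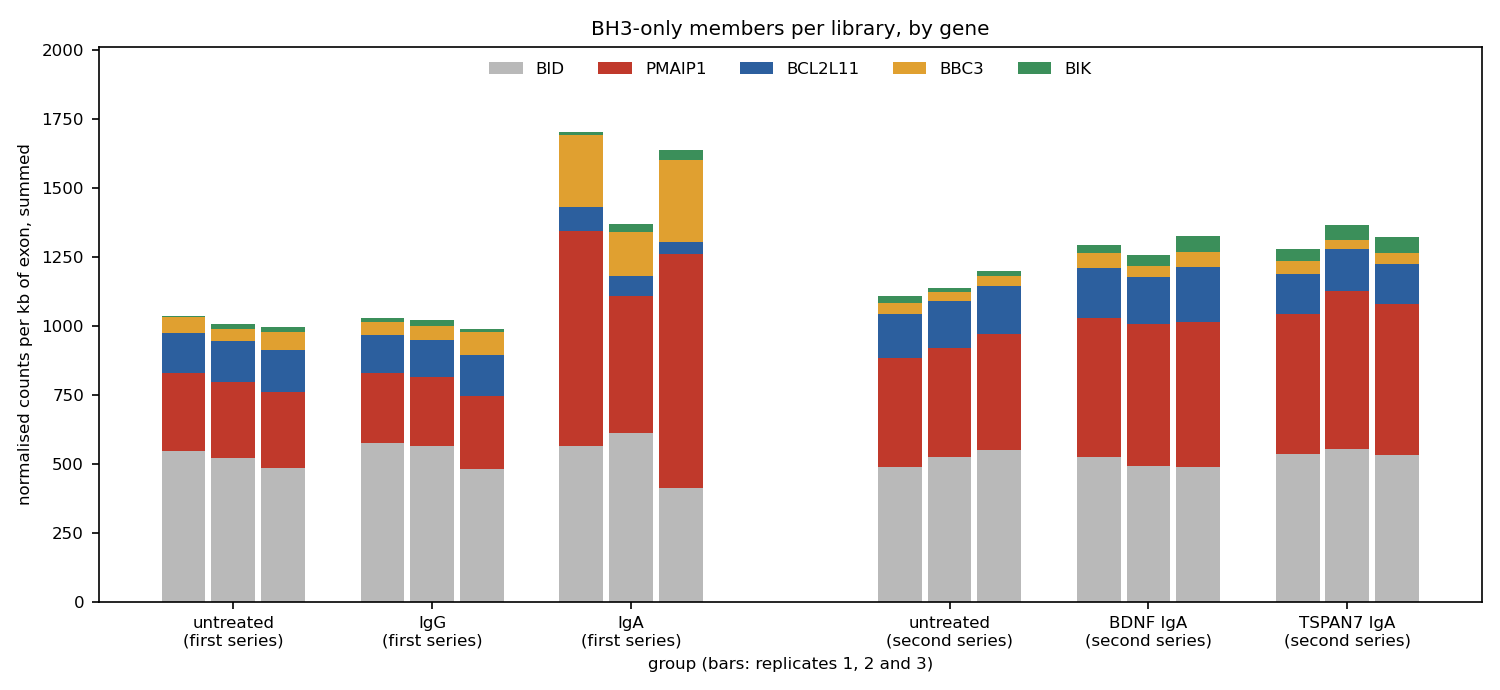
Stacked bars of the 5 BH3-only members in normalised counts per kb of exon (y axis, from 0), 1 bar per library, 3 libraries per group, with each series scaled on its own. The IgA bars hold larger PMAIP1 (red) and BBC3 (yellow) parts and smaller BCL2L11 (blue) parts than the untreated and IgG bars. In the second series the differences are smaller, with PMAIP1 making up 34.9% to 35.8% untreated and 39.1% to 42.0% with either antibody.

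IgA against BDNF raised PMAIP1. It was the 1 member of 9 called against untreated cells, beside 7.67% of 18732 genes (4.49% higher and 3.18% lower). PMAIP1 gave 869, 866 and 916 normalised counts in untreated cells and 1102, 1127 and 1151 with BDNF IgA. The groups did not overlap, and the log2 fold change was 0.35 (SE 0.0623, 1.27-fold, adjusted p = 0.00113 with edgeR). BBC3 gave 125, 100.1 and 116 untreated and 173, 123 and 174 with BDNF IgA, overlapping through BDNF IgA replicate 2, and did not pass the test (0.46, adjusted p = 0.0847). BIK gave 25.3, 14.2 and 18.1 untreated and 27.3, 35.96 and 54.2 with BDNF IgA, which did not overlap but missed the threshold (1.03, SE 0.319, adjusted p = 0.0516). Without BDNF IgA replicate 2 both would be called, BBC3 at 0.60 (adjusted p = 0.00832 with edgeR) and BIK at 1.09 (0.0341), and without BDNF IgA replicate 1 BIK would be (1.23, 0.0353).

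The guardians and effectors differed little with BDNF IgA. MCL1 gave 11192, 11003 and 11095 normalised counts untreated and 11257, 11229 and 10752 with BDNF IgA, a log2 difference of -0.00 with a 95% interval from -0.09 to 0.08. BCL2L1 differed by -0.02 (-0.14 to 0.10), BAX by -0.04 (-0.20 to 0.11), BAK1 by -0.01 (-0.19 to 0.18) and BID by -0.05 (-0.16 to 0.06). BCL2L11 gave 1077, 1139 and 1172 untreated and 1222, 1149.7 and 1335 with BDNF IgA, a log2 difference of 0.13 (-0.00 to 0.26) that did not pass the test. The groups did not overlap for 2 of the 9 members, beside 24.7% of all genes, and the median over members was -0.00.

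IgA against TSPAN7 raised PMAIP1 and BIK. These 2 of the 9 members were called against the same untreated libraries, beside 8.54% of 18732 genes (4.46% higher and 4.08% lower). PMAIP1 gave 1109, 1254 and 1194 normalised counts with TSPAN7 IgA, all above the untreated values, with a log2 fold change of 0.42 (SE 0.0623, 1.34-fold, adjusted p = 1.18e-04). BIK gave 41.9, 51.6 and 55.2, again above all untreated libraries, with a log2 fold change of 1.36 (SE 0.313, 2.58-fold, adjusted p = 0.0077). BIK remained a low transcript, at 52.2 ± 7.22 normalised counts per kb (SD, n = 3) with TSPAN7 IgA.

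BCL2L1 and BCL2L11 lay just outside the threshold with TSPAN7 IgA. BCL2L1 gave 4522, 4177 and 4702 normalised counts untreated and 5203, 5015 and 5018 with TSPAN7 IgA, without overlap (0.18, SE 0.0586, adjusted p = 0.0536 with edgeR). BCL2L11 gave 983, 1016 and 979.8 with TSPAN7 IgA, all below the untreated libraries (-0.19, SE 0.0646, adjusted p = 0.0811). Fitted with only the 6 libraries compared, or without BDNF IgA replicate 2, both passed: BCL2L1 at adjusted p = 0.00518 and 0.00604 and BCL2L11 at 0.0332 and 0.0359 with edgeR. BCL2L1 also passed with DESeq2 (adjusted p = 0.0407) and, in edgeR, with no filter (0.00792), without mitochondrial and ribosomal RNA genes (0.0496) and without BDNF IgA replicate 3 (0.0258). BBC3 gave 146, 115 and 132, overlapping the untreated libraries (0.20, 95% interval -0.14 to 0.55). MCL1 differed by -0.00 (-0.09 to 0.08), BID by 0.05 (-0.06 to 0.16), BAX by -0.08 (-0.24 to 0.08) and BAK1 by -0.02 (-0.20 to 0.17). The groups did not overlap for 4 members, beside 28.4% of all genes.

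The antigen-specific antibodies were also compared directly, which tests whether their effects on a gene differ. Against BDNF IgA, TSPAN7 IgA libraries had lower BCL2L11 (-0.32, SE 0.0644, 1.24-fold lower, adjusted p = 0.00415) and higher BCL2L1 (0.20, SE 0.0586, 1.15-fold, adjusted p = 0.0359). These were 2 of 9 members, 1 in each direction, beside 7.92% of 18732 genes (3.42% higher and 4.50% lower). Both genes separated the groups: BCL2L11 stood at 1149.7 to 1335 with BDNF IgA and 979.8 to 1016 with TSPAN7 IgA, and BCL2L1 at 4075 to 4903 and 5015 to 5203. The call for BCL2L11 held under every alternative tried, whereas that for BCL2L1 was lost without BDNF IgA replicate 3 (0.15, adjusted p = 0.211 with edgeR) or replicate 1 (0.163), without any 1 of the TSPAN7 IgA libraries (0.0818 to 0.109) and without untreated replicate 1 (0.0556). PMAIP1 did not differ beyond the spread (0.07, 95% interval -0.05 to 0.20), nor did BIK (0.33, -0.26 to 0.93) or BBC3 (-0.26, -0.59 to 0.07). BID did not overlap either (2159 to 2311 against 2348 to 2439) but was not called (0.11, adjusted p = 0.240), making 3 of 9 members without overlap, beside 23.6% of all genes.

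In the second series the BH3-only sum came to 38.5% to 41.3% of the guardians untreated, 42.2% to 49.1% with BDNF IgA and 41.9% to 45.9% with TSPAN7 IgA. BCL2L11 made up 14.4% to 14.9%, 13.6% to 14.95% and 10.99% to 11.4% of the BH3-only sum in that order. Its share with TSPAN7 IgA lay below every untreated and BDNF IgA library.

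Other genes of the death pathway were read from lists named by function. Of 13 other BCL2 family genes 10 were tested, and with IgA against IgG 2 rose and 1 fell (median 0.14 beside -0.01 over all genes). Of all genes tested, 24.2% were called in that comparison, so this count is near the share over all genes. BMF, a BH3-only protein tied to the cytoskeleton, fell by 1.14 (SE 0.161, adjusted p = 4.02e-04), from 875 ± 162 to 399 ± 60.9 normalised counts (SD, n = 3). BNIP3, a hypoxia-induced mitophagy receptor, rose by 1.39 (SE 0.141, adjusted p = 3.86e-05), and BNIP3L, its relative, rose by 0.40 (adjusted p = 0.0225). The call of BNIP3L was lost without IgG replicate 1 (adjusted p = 0.101 with edgeR) or 2 (0.0862) and with library size scaling (0.383). BCL2L2, the guardian BCL-W, gave 575 ± 28.2 normalised counts with IgG and 444 ± 84.3 with IgA and was not called (-0.38, adjusted p = 0.0947).

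BMF moved in opposite directions with the antigen-specific antibodies. It was 620 ± 61.1 normalised counts untreated, 896 ± 193 with BDNF IgA and 454 ± 20.2 with TSPAN7 IgA (SD, n = 3). The 3 BDNF IgA libraries were above and the 3 TSPAN7 IgA libraries below all untreated ones. BMF rose by 0.53 (SE 0.110, adjusted p = 0.00409) with BDNF IgA and fell by 0.45 (SE 0.116, adjusted p = 0.0163) with TSPAN7 IgA, and the direct difference was -0.98 (SE 0.114, adjusted p = 3.45e-05). The call with TSPAN7 IgA was lost without untreated replicate 3 (adjusted p = 0.103 with edgeR), TSPAN7 IgA replicate 1 (0.0606) or replicate 2 (0.0879). Of the 10 other BCL2 family genes tested, BMF was the 1 called with BDNF IgA (beside 7.67% of all genes). With TSPAN7 IgA 3 were lower (beside 8.54%), among them BNIP3, a call lost without any 1 untreated replicate (0.105 to 0.129). Between the antibodies 2 were lower and 1, BCL2, higher (beside 7.92%). The BCL2 call was lost without BDNF IgA replicate 1 (0.225).

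Among the 11 caspase inhibitors and death receptor signalling genes, 2 were higher and 4 lower with IgA against IgG (median -0.25). Over all genes 24.2% were called there. BIRC3, a ubiquitin ligase induced by NF-kB, rose by 4.05 (SE 0.448, adjusted p = 7.25e-05), from 46.8 ± 12.6 to 782 ± 542 normalised counts, and by 3.33 without IgA replicate 3. BIRC2, its paralog, rose by 1.25 (SE 0.154, adjusted p = 1.49e-04). RIPK1, a kinase of death receptor complexes, fell by 0.84 (SE 0.173, adjusted p = 0.00434), and CASP10, FADD and CASP8, which form the death receptor complex, fell by 0.57, 0.49 and 0.38 (adjusted p = 0.0164, 0.0151 and 0.0188 with edgeR). The calls of these last 3 were lost without 1 or more IgG replicates. In the second series BIRC3 rose by 0.71 with TSPAN7 IgA (SE 0.139, adjusted p = 0.00226) and by 0.46 with BDNF IgA (SE 0.141, adjusted p = 0.0472), and the direct difference of 0.25 was not called (adjusted p = 0.292). The BIRC3 call with BDNF IgA was lost without BDNF IgA replicate 1 (adjusted p = 0.112 with edgeR) or 3 (0.288), any 1 untreated replicate (0.0505 to 0.158) or TSPAN7 IgA replicate 1 (0.0682) or 2 (0.0572). CFLAR, an inhibitor of caspase-8, fell by 0.28 with TSPAN7 IgA (SE 0.0481, adjusted p = 7.04e-04).

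For the 10 apoptosome and executioner genes the median log2 difference between IgA and IgG was -0.16. Against untreated cells it was -0.17 with BDNF IgA and -0.08 with TSPAN7 IgA, beside 0.00 and -0.00 over all genes. The groups did not overlap for 9 of these genes with BDNF IgA and 6 with TSPAN7 IgA, beside 24.7% and 28.4% of all genes. HTRA2, a mitochondrial protease that can be released to the cytosol, rose by 0.44 with IgA (adjusted p = 0.0112 with edgeR), a call lost with library size scaling (0.307) and without IgG replicate 3 (0.0550). With BDNF IgA, HTRA2 was also called higher and CYCS and CASP6 were called lower, and each of these calls was lost in some alternatives. CASP6 was also called lower with TSPAN7 IgA, and with non-specific IgA against untreated cells (-0.38, adjusted p = 0.0351 with edgeR). Both of these CASP6 calls were lost in some alternatives too.

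The 18 p53 targets included 5 higher and 3 lower genes with IgA against IgG (median 0.12), so the list did not move as a block. The share called over all genes was 24.2%. GDF15, a stress cytokine, rose by 3.85 (SE 0.459, adjusted p = 1.18e-04), and by 4.59 without IgG replicate 3. CDKN1A, the cell cycle inhibitor p21, rose by 1.99 (SE 0.258, adjusted p = 2.09e-04), and PLK3, a stress kinase, by 1.58 (SE 0.167, adjusted p = 5.05e-05). The death receptor genes TNFRSF10B and FAS rose by 0.92 and 0.78 (adjusted p = 9.97e-05 and 0.00235 in edgeR). TP53INP1, an autophagy and stress gene, fell by 1.38 (SE 0.226, adjusted p = 0.00109). MDM2 fell by 0.67 (adjusted p = 0.00444 with edgeR), a call kept in all 18 alternatives. SESN1 fell by 0.66 (adjusted p = 0.0366 with edgeR), a call kept in 11 of 18. TP53INP1 also fell by 0.60 with TSPAN7 IgA (SE 0.0854, adjusted p = 8.96e-05).

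No gene of MCL1 turnover (6 tested with non-specific and 5 with antigen-specific antibodies) was called in any comparison with edgeR. The share called over all genes was 24.2% with IgA against IgG, 25.0% against untreated cells and 7.67% to 8.54% in the second series. At an unadjusted p under 0.05 there was 1 with IgA against IgG, beside 6758 of all 18012 genes. There was also 1 with BDNF IgA (beside 4131 of 18732) and 1 in the direct comparison of TSPAN7 with BDNF IgA (beside 4222). DESeq2 called 1 with IgA against IgG, beside 2645 higher and 2566 lower over all genes. The 10 mitochondrial outer membrane partners had 3 higher and 1 lower with IgA against IgG (median 0.15), beside 24.2% of all genes called. The channels VDAC1 and VDAC2 each rose by 0.35 (adjusted p = 0.0265 and 0.0234 with edgeR), and MFN1, a fusion protein of that membrane, fell by 0.35 (adjusted p = 0.0183). The VDAC calls were lost with library size scaling (0.580 and 0.573) and all 3 without 1 or more IgG replicates. With IgG against untreated cells no gene of the 6 lists was called with either tool, and none had an unadjusted p under 0.05.

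**Figure D4:**
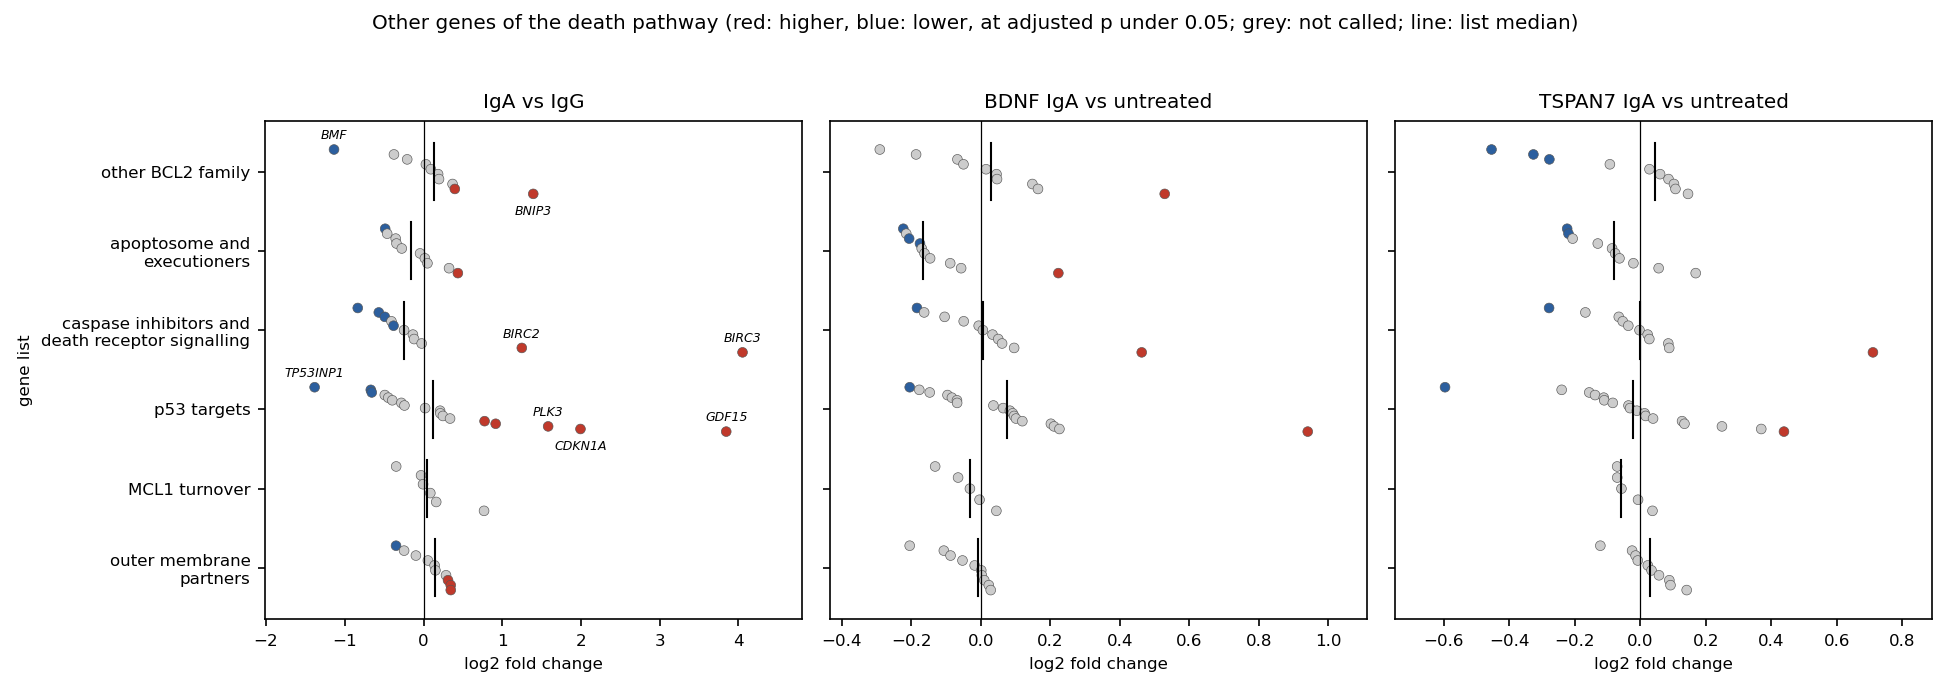
Log2 fold changes (x axis, a different scale in each panel) of the tested genes of the 6 lists in 3 comparisons, red where higher and blue where lower at an adjusted p under 0.05, grey where not called, with the list median as a line. Genes beyond 1 in either direction are named in the IgA panel, where BIRC3 (4.05) and GDF15 (3.85) lie farthest to the right and TP53INP1 (-1.38) and BMF (-1.14) to the left.

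The genes whose pattern over the 18 libraries was most like that of a member were found by Pearson's r of log2 values over 13347 genes, each series centred on its untreated mean. For PMAIP1 these were TRIP10, CLDND1 and CSF1 (r = 0.98), for BBC3 AHR, ARHGEF2 and TNFRSF10B (0.97 to 0.98) and for BCL2L11 VASH1, HOMEZ and VAV3 (0.98). For BCL2L1 they were ID3, KRT14 and LINC00152 (0.97), for MCL1 HSPA1A, HSPA1B and RGS3 (0.97 to 0.98) and for BIK SLC2A4RG, RECK and ASAP2 (0.79 to 0.80). The libraries share treatment groups and, within a series, untreated controls, so these values are a description.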

How the data were processed

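RNA from 18 OVCAR3 libraries, 3 in each of 6 groups, was prepared with the Ovation Human FFPE RNA-Seq kit and sequenced as paired-end reads. The authors trimmed reads with cutadapt 1.8.1, aligned them to GRCh37 with STAR and, according to their methods, counted reads per gene with featureCounts, while the submitters' processing notes name HTSeq 0.6.1. The strand setting was not given in the sources used here. The deposited values are raw counts per gene. Of 57820 rows in the second series 2055 repeated another row exactly (1.99% to 2.46% of a library) and were removed, leaving 55765 symbols in each series. Groups and replicate numbers come from the sample titles.

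Each series was fitted once with its 9 libraries in edgeR 4.0.16 (R 4.3.3) with TMM scaling, filterByExpr and the two-sided quasi-likelihood F test, on 18012 and 18732 genes, and Benjamini-Hochberg adjustment was applied per comparison. Standard errors were taken as |log2 fold change| over the root of the F statistic. Fold changes come from the fit, and normalised counts are counts brought to the average TMM-adjusted total of a series. Genes were called at an adjusted p under 0.05. The first series had a common dispersion of 0.0307, the second one of 0.00303. Replicates differed by more than sampling noise (chi-square per degree of freedom 4.16 to 259), so none was counted as a copy. Reads carry no molecular identifiers, so the limit of 3 counts covers counting error only. Positions and exon lengths are from GENCODE on GRCh37 and promoters from RefSeq on GRCh38.p14.

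The plan was to name all 10 members in every comparison and up to 6 genes per list and comparison (called ones first, by size). The 3 genes most alike were named only for members called at least once. For the p53 targets with IgA against IgG all 8 called genes were named. Elsewhere not every called list gene was named, so a list gene not named may still have been called. Fold changes of uncalled members were not all printed. The members and lists were chosen with earlier results of these data known. Alternatives were DESeq2 1.42.0, other scalings and filters, dropping mitochondrial and ribosomal RNA genes, a fit of just the 6 libraries of a comparison, a replicate block, and leaving out each replicate. For IgG and untreated libraries all 3 same-number pairs deviated together (correlations of 0.172, 0.133 and 0.537). Untreated replicate 2 with IgG replicate 1 (0.394) and untreated replicate 1 with IgG replicate 2 (0.163) did so too. The remaining different-number pairs of these groups ran from -0.48 to -0.24. The numbers therefore do not settle whether libraries were paired. The main fit used group only, and the replicate block called no gene for IgG against untreated cells either. The fits were tested on simulated data. The results of 1 list gene are not reported here.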

Additional observations from a re-analysis of the deposited data

Results flagged for a closer look

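PMAIP1 moved to opposite sides of the untreated libraries with the non-specific antibodies: all 3 IgA libraries were above them (log2 fold change 1.35) and all 3 IgG libraries below (-0.13, not called). The value with IgG had a 95% interval from -0.48 to 0.23, so a fall with IgG is not shown. The comparison of IgA with IgG gave 1.47 (adjusted p = 8.42e-05 with edgeR). It cannot test the IgG side, because the rise with IgA enters it as well.

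BMF was above all untreated libraries in the 3 BDNF IgA libraries (0.53) and below them in the 3 TSPAN7 IgA libraries (-0.45). The direct comparison tests this difference and gave -0.98 (adjusted p = 3.45e-05 with edgeR). APAF1, which encodes the scaffold of the apoptosome, was below them with BDNF IgA (-0.16) and above them with TSPAN7 IgA (0.06), and neither was called. The direct difference was 0.22 (adjusted p = 0.0781 with edgeR), not called either. In each pair the fold changes share the same untreated libraries.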

How the results depend on the processing

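Each of the 54 member values (9 members in 6 comparisons) was refitted under 18 alternatives per comparison. BIK had a value in 17 of them, and in 16 with BDNF IgA, where DESeq2 gave it no adjusted p. Of 15 called values, 12 stayed called in the same direction under all alternatives that gave a value (BIK had none with the filter of 50 counts), and the exceptions were MCL1 with IgA (against IgG and against untreated cells) and BCL2L1 between TSPAN7 and BDNF IgA. MCL1 with IgA was lost in 7 of 18 alternatives against IgG and in 8 of 18 against untreated cells. These included fits of only the 6 libraries compared (adjusted p = 0.0683 and 0.0675 with edgeR), upper quartile scaling (0.0502 and 0.0544) and fits without any 1 IgG replicate against IgG (0.0623 to 0.0987) or any 1 untreated replicate against untreated cells (0.0689 to 0.107). BAX with IgA against untreated cells passed with DESeq2 (0.32, adjusted p = 0.0404) and with a filter of 50 counts (0.0489). The cause of these changes was not tested. Over all genes, calls with IgA against IgG went from 2265 higher and 2095 lower to 1339 and 1227 without IgG replicate 3, and with IgA against untreated cells from 2316 and 2187 to 1365 and 1236 without untreated replicate 3. Leaving out BDNF IgA replicate 2 raised them from 841 and 596 to 1505 and 1293 with BDNF IgA and from 641 and 843 to 1554 and 1722 in the direct comparison, while leaving out replicate 3 of BDNF IgA gave 429 and 305, and 196 and 286. With TSPAN7 IgA they went from 836 and 764 to 429 and 328 without its replicate 2. For IgG against untreated cells, 2 genes were lower with no filter.

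The number of members called with IgA ranged from 4 to 5 against IgG and from 4 to 5 against untreated cells when each replicate was left out, and stayed 0 for IgG. For BDNF IgA against untreated cells the count became 2 with library size scaling, no filter, no mitochondrial or ribosomal RNA genes, or a replicate block, and ranged from 1 to 3 when each replicate was left out. For TSPAN7 IgA it became 1 with a filter of 50 counts, which BIK does not pass, and 4 with only the 6 libraries compared, and ranged from 2 to 4. For TSPAN7 against BDNF IgA it became 1 with library size scaling or only the 6 libraries, and ranged from 1 to 2. Outside the comparison of IgG with untreated cells, replicate numbers did not show pairing either. Deviations of same-number libraries correlated at -0.11 to 0.0576 with IgA and at -0.08 to 0.17 (2 of 9 over 0.1) in the other series. The replicate block called 5, 5, 0, 2, 2 and 2 members in the order of the comparisons, the 1 gain being BBC3 with BDNF IgA (0.46, adjusted p = 0.0468 with edgeR). It changed no other call of a member.

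Directions changed for uncalled values near 0. With library size scaling BAX with IgA against IgG became -0.08, BID with IgA against untreated cells -0.16, MCL1 with IgG 0.01 and BAK1 with BDNF IgA 0.01, and with upper quartile scaling BID with IgA against untreated cells became -0.01. When each replicate was left out, values crossed 0 for BID (-0.15 to 0.12) and BAK1 (-0.07 to 0.06) with IgA against IgG and for BID (-0.08 to 0.18) and BAK1 (-0.05 to 0.07) against untreated cells. With IgG this held for MCL1 (-0.05 to 0.02), BBC3 (-0.17 to 0.26), BIK (-0.18 to 0.53) and BAK1 (-0.03 to 0.04). With BDNF IgA it held for MCL1 (-0.02 to 0.02), BCL2L1 (-0.10 to 0.03), BAX (-0.08 to 0.01) and BAK1 (-0.04 to 0.02), with TSPAN7 IgA for MCL1 (-0.02 to 0.01) and BAK1 (-0.14 to 0.09), and between them for MCL1 (-0.02 to 0.01), BAX (-0.14 to 0.03) and BAK1 (-0.12 to 0.09).

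The data are limited by 3 libraries per group of 1 cell line, by IgA libraries that were less alike than the others, and by low counts for BIK and BCL2A1. Transcript levels say nothing of protein, which is regulated after transcription for several members. Strand was not stated, which bears on BCL2L1 and BCL2L11.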
